A study of Arabidopsis thaliana with 18 samples.

Results

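XTH genes encode xyloglucan endotransglucosylase/hydrolases, enzymes of the plant cell wall. The 33 Arabidopsis thaliana genes named XTH1 to XTH33 were taken by their locus identifiers, and each of the 33 was found in the deposited table of 24532 genes. Xyloglucan is a branched glucan that coats and links cellulose in the primary wall. XTH enzymes cut a xyloglucan chain and either join the new end to another chain or, in some members, release it to water. The family is known for work in growing walls, and several members are known from the root elongation zone and from root hairs. By their numbers the genes fall into a first group (XTH1 to XTH11), a second group (XTH12 to XTH26) and a last group (XTH27 to XTH33).

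The RNA came from roots of wild type (WT) plants and of 2 transgenic lines, C4 and B2, whose inserted isoprene synthase gene came from Eucalyptus globulus and was driven by the promoter of RBCS1A, a gene for the Rubisco small subunit. Isoprene is a volatile that Arabidopsis does not naturally emit. The labels name roots at 0 or 150 mM NaCl. Their protocols describe an empty vector line as control and other NaCl levels for growth tests, whereas the samples themselves are labelled WT and 150 mM. The age and culture of the plants at 150 mM were not given in the sources used here. At 0 mM there were 3 WT libraries and at 150 mM 2, while C4 and B2 each had 3 per condition. One more WT column at 0 mM, library 2, held the same count as library 1 in 24515 of 24532 genes, against at most 2993 in any other pair. The 17 genes that differed were all among the first 28 of the deposited table. Both columns were therefore counted as 1 sample. The remaining 17 libraries held 54233853 to 91527683 counts. No label says which plants or cultures a library came from, so each p-value reflects how far these libraries vary, and that variation may be technical.

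The levels of 2 genes, ANNAT3 and MRD1, went against the labels of 2 libraries. These genes were chosen with earlier results of these data known, so they are not independent markers of genotype. ANNAT3, an annexin gene, held 96.8 CPM (counts scaled to a common library size) in B2 0 mM library 3 and 0.457 to 1.36 CPM in the other 5 B2 libraries. MRD1 held 0.0499 CPM in that library and 32.8 to 44.0 CPM in the other C4 and B2 libraries. MRD1 held 33.4 CPM in WT 150 mM library 2 and 0.0965 to 2.06 CPM in the other WT libraries. Both libraries were kept as labelled, and results that change without them are given as such. Without them, WT 150 mM library 1 is the only WT library at 150 mM. RD29A, a salt and drought marker, rose in each genotype, with a log2 fold change of 5.16 ± 0.64 (SE) in WT, 4.41 ± 0.60 in C4 and 4.87 ± 0.62 in B2. The root endodermis markers SCR, MYB36, CASP1 and CASP2 summed to between 229 and 382 CPM in every library, and the leaf markers LHCB1.3, LHCB2.1, RCA and CA1 to between 35.6 and 151 CPM.

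The members differed widely in level. Levels between genes are compared per kb of exon, as CPM per kb. XTH24, also known as MERI5, was highest at a mean over the 6 groups of 113 CPM per kb (71.3 to 169 over the 17 libraries). XTH31, an enzyme that mainly hydrolyses xyloglucan in vitro, followed at 98.4 CPM per kb, XTH30 at 76.7, XTH4 at 67.7 and XTH18 at 63.3. The ranges of neighbours in this order overlapped over the libraries. XTH19 and XTH14 came next, at 60.7 and 50.4 CPM per kb. At the other end, XTH11, XTH29 and XTH2 had means of 0.42, 0.364 and 0.129 CPM per kb. XTH1 and XTH3 had no count in any library, where 3 counts would be 0.0328 to 0.0553 CPM, and XTH6 and XTH25 had at most 6 counts in a library. Positions given below with a gene are those of the deposited table, on TAIR10, and a count covers all exons of the gene. The 4 genes with few or no counts did not pass the filter on low counts, which left 29 members among 21367 tested genes.

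**Figure D1:**
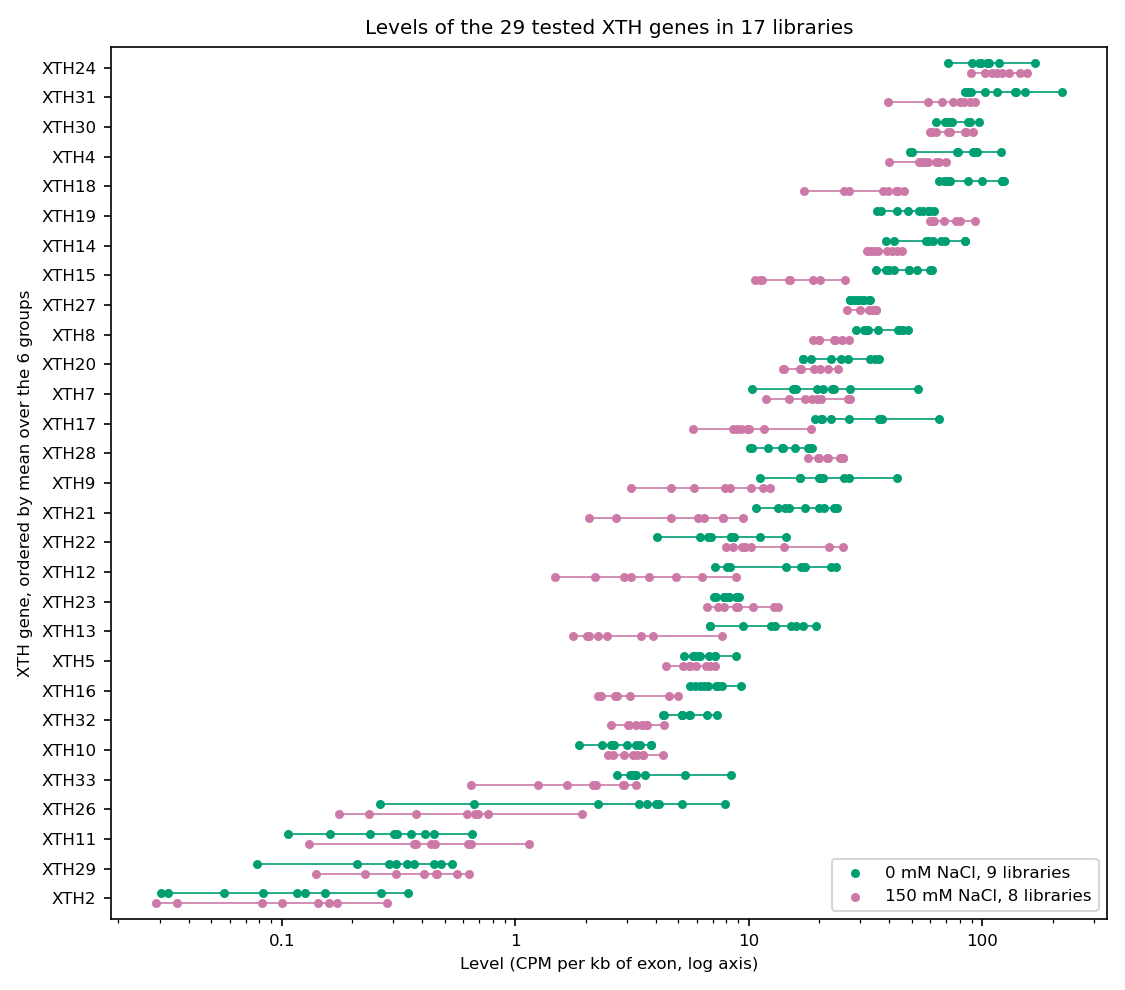
Level of each of the 29 tested XTH genes (CPM per kb of exon, log axis) in the 9 libraries at 0 mM and the 8 at 150 mM NaCl, ordered by the mean over the 6 groups. Points are libraries and lines span their range. XTH24 is highest with a mean over the 6 groups of 113 CPM per kb. XTH8, XTH15, XTH16, XTH17, XTH18 and XTH21 are among the genes with no library at 150 mM as high as any at 0 mM.

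The summed level of the 33 members was lower at 150 mM in each genotype. In WT the sum was 1447, 1204 and 1289 CPM at 0 mM against 754.2 and 958.3 CPM at 150 mM. In C4 it was 1056, 1240.3 and 1277 CPM against 965.9, 901.6 and 986.7 CPM. In B2 it was 1282, 1068 and 1216 CPM against 972.4, 925.4 and 849.9 CPM. Every library at 150 mM lay below every library at 0 mM, the lines included.

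Averaged with equal weight over the 3 genotypes, 16 of the 29 tested members fell with salt and 2 rose by edgeR's quasi-likelihood test at an adjusted p of 0.05. Over all tested genes, 20.5% fell and 21.5% rose in that comparison, 42.1% in all. The median log2 fold change of the 29 members was -0.52, beside -0.01 over all tested genes. Of the 14 tested members of the second group, 10 fell and 1 rose, with a median of -1.27. The first group had 3 falls and no rise among 8 members, with a median of -0.19, and the last group 3 falls and 1 rise among 7, with a median of -0.09. XTH4 and XTH20 missed the threshold without WT 150 mM library 1. The other 16 calls stood under every alternative run.

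Within genotypes fewer members passed. In WT, 9 of 29 members fell and none rose, where 7.35% of all tested genes fell and 9.28% rose (16.6% in all). In C4, 11 fell and 2 rose, where 5.44% of all tested genes fell and 6.69% rose (12.1% in all). In B2, 8 fell and none rose, where 6.64% fell and 9.61% rose (16.2% in all). XTH8, XTH9, XTH13 and XTH15 fell in all 3 genotypes, and 14 members fell in at least 1. WT and C4 shared 6 members that fell (66.7% of the WT list and 54.5% of the C4 list), WT and B2 shared 5 (55.6% and 62.5%), and C4 and B2 shared 7 (63.6% and 87.5%). The matching overlaps over all tested genes were not computed, so these shares do not show a trait of the family. The libraries of the 2 conditions did not overlap for 17 members in WT, 14 of them lower with salt (44.2% and 21.4% of all tested genes), for 18 in C4, 15 of them lower (34.7% and 16.5%), and for 9 in B2, 8 of them lower (34.5% and 15.7%). The members that did not overlap and were higher numbered 3, 3 and 1, where all tested genes had 22.9%, 18.2% and 18.8%. The counts of calls depend on the fit and on single libraries. The shares of all tested genes called in these other fits are not given. Whether calls of other genes were lost alike cannot be read from the counts below. Fitting only the WT libraries gave 2 members in place of 9. With WT 150 mM library 1 left out, 0 members passed in WT, and with WT 0 mM library 1 left out, 4 did. In B2, 0 passed without B2 150 mM library 2, 2 without B2 150 mM library 3, and 5 without B2 0 mM library 1 or library 3. Leaving out C4 150 mM library 3 gave 7 in C4, and leaving out library 2 or library 3 at 0 mM gave 8.

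**Figure D2:**
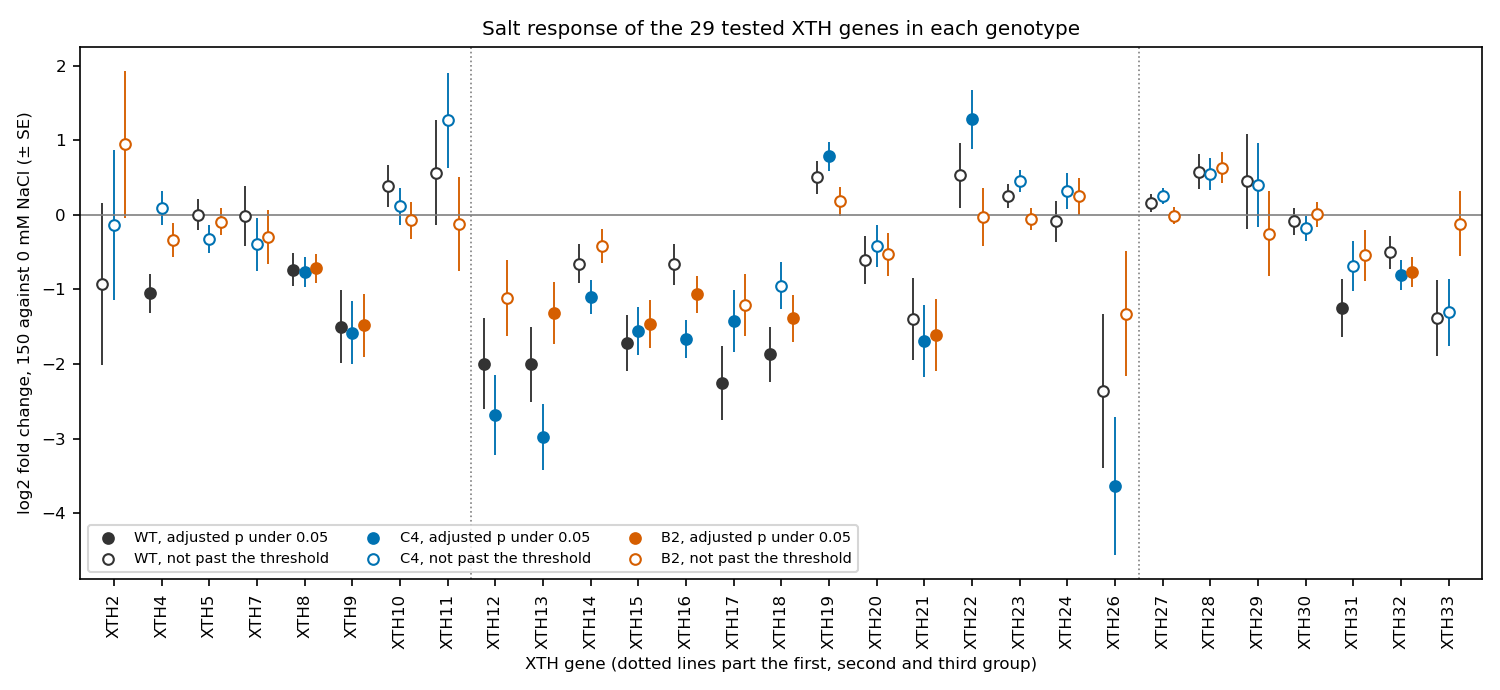
Log2 fold change (150 against 0 mM NaCl) of each of the 29 tested XTH genes in WT, C4 and B2, with bars for the SE. Filled points passed an adjusted p of 0.05 in edgeR. XTH8, XTH9, XTH13 and XTH15 are filled and below 0 in all 3 genotypes, while XTH19 and XTH22 are filled and above 0 in C4.

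Some markers of root cell types moved with salt too. In bulk RNA, fewer cells of a type and less RNA per cell cannot be told apart. The 6 root hair markers summed to 169 to 264 CPM in the libraries at 0 mM and to 89.6 to 157 CPM at 150 mM. EXPA18, an expansin of root hairs, and LRX1, a leucine-rich repeat extensin of the root hair wall, fell in all 3 genotypes, by 1.00, 1.65 and 0.94 on the log2 scale for EXPA18 in WT, C4 and B2, and by 0.97, 1.85 and 0.78 for LRX1. Over the genotypes, 4 of 6 root hair markers fell, and so did 2 of 4 endodermis and 2 of 4 meristem markers, where 20.5% of all tested genes fell. Of the 3 xylem markers, 0 passed in any genotype or over them. The 2 phloem markers differed in direction. SUC2, a sucrose carrier, rose in each genotype, with log2 fold changes of 1.55 in WT, 1.22 in C4 and 1.44 in B2. APL, a regulator of phloem identity, had log2 fold changes of 0.04, -0.38 and -0.49 in the same order. APL fell in B2 and over the genotypes (edgeR adjusted p = 0.0462 and 0.0286). The 4 leaf markers summed to 35.6 to 103 CPM at 0 mM and 91.5 to 151 CPM at 150 mM, with 2 of 4 called higher over the genotypes, where 21.5% of all tested genes rose. All 4 were detected except in WT 150 mM library 1, where 1 was at 0. The part of these shifts in the XTH values was not tested.

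Among the first group, XTH9 and XTH8 fell in every genotype. XTH9 (AT4G03210, chr4:1415617-1417444, plus strand) is known from growing shoot tips and stems. In WT, XTH9 held 17.0, 25.4 and 31.6 CPM at 0 mM and 4.77 and 12.7 CPM at 150 mM. In C4, XTH9 held 39.2, 65.5 and 30.5 CPM at 0 mM and 15.6, 12.1 and 17.6 CPM at 150 mM. In B2, XTH9 held 40.9, 30.8 and 25.3 CPM at 0 mM and 18.8, 8.86 and 7.08 CPM at 150 mM. In each genotype, all libraries at 150 mM were below all at 0 mM. The log2 fold changes of XTH9 were -1.5 ± 0.49 (SE, edgeR adjusted p = 0.0484) in WT, -1.58 ± 0.42 (adjusted p = 0.0256) in C4 and -1.48 ± 0.42 (adjusted p = 0.0299) in B2. The WT call was lost under 14 of 22 alternatives, with a value of -0.96 (adjusted p = 0.355) without WT 150 mM library 1.

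XTH8 (AT1G11545, chr1:3878495-3880391, minus strand) moved less but evenly. In WT it held 54.0, 53.0 and 39.6 CPM at 0 mM and 28.1 and 30.6 CPM at 150 mM. In C4 it held 39.2, 43.5 and 55.8 CPM at 0 mM and 28.5, 28.5 and 24.4 CPM at 150 mM. In B2 it held 37.8, 35.2 and 58.3 CPM at 0 mM and 32.6, 23.0 and 24.2 CPM at 150 mM. All 8 libraries at 150 mM lay below the 9 at 0 mM. Its log2 fold changes were -0.74 ± 0.22 in WT, -0.77 ± 0.20 in C4 and -0.72 ± 0.20 in B2, with edgeR adjusted p = 0.033, 0.019 and 0.0232. In B2 the value was -0.47 (adjusted p = 0.125) without the 2 libraries that go against their labels.

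XTH4 (AT2G06850, chr2:2763449-2765743, plus strand), a member known from stems and wood, fell in WT alone among the calls. WT held 148.0, 153.1 and 194.8 CPM of XTH4 at 0 mM and 64.7 and 94.7 CPM at 150 mM. C4 held 81.0, 79.1 and 125.4 CPM at 0 mM and 102.8, 88.0 and 113.3 CPM at 150 mM. B2 held 126.8, 79.8 and 152.2 CPM at 0 mM and 105.3, 91.7 and 86.7 CPM at 150 mM. Only in WT did the ranges of the 2 conditions not overlap. The log2 fold changes of XTH4 were -1.05 ± 0.26 in WT (edgeR adjusted p = 0.014), 0.09 ± 0.23 in C4 (adjusted p = 0.841) and -0.34 ± 0.23 in B2 (adjusted p = 0.321). The difference between C4 and WT in salt response was 1.14 ± 0.35, with an unadjusted p of 0.00452 and an edgeR adjusted p of 1. It therefore did not pass. XTH5, XTH7 and XTH10 had averaged log2 fold changes of -0.14, -0.24 and 0.14 and were not called.

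The 3 largest averaged falls among the members were in genes of the root hair zone. XTH12, XTH13, XTH14 and XTH26 are members of the second group that are known to be expressed in root hair cells or their zone. Averaged over genotypes, XTH26 fell by 2.44 ± 0.54 (SE) on the log2 scale, XTH13 by 2.1 ± 0.26, XTH12 by 1.93 ± 0.32 and XTH14 by 0.72 ± 0.14, with edgeR adjusted p = 0.00248, 3.09e-05, 3e-04 and 0.00065. XTH12 and XTH13 are neighbours on chromosome 5 and XTH14 lies on chromosome 4. Their promoters, taken from 250 bases before to 50 after the annotated start, hold a common run of 11 bases, tccacgaacct, which is present in 5 of 24527 promoters (0.02%) on either strand. The other 2 are those of the neighbouring genes OTP84 and AT3G57440. The run was found by comparing these 3 promoters, so its rarity is a description. The 66 bases around it are shown because the 3 genes fell together, with capitals for bases identical in all 3 (22 of 66). They are read from TAIR10 in the direction of the gene, at chr5:23301648-23301713 (minus strand), chr5:23304131-23304196 (minus strand) and chr4:13130120-13130185 (plus strand).
XTH12: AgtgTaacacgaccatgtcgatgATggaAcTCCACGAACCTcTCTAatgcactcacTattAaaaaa
XTH13: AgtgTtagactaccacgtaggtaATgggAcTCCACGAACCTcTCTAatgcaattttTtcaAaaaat
XTH14: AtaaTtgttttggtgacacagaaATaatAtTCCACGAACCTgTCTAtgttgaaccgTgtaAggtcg
Without gaps, XTH12 and XTH13 were identical in 50 of the 66 bases, XTH12 and XTH14 in 25, and XTH13 and XTH14 in 28. For XTH14 these values hold only for the window set on the run at -141. Another stretch of XTH14, around the letters CACGT at -61, was closer to XTH13. It was identical in 27 of 35 bases to the XTH13 stretch around CACGT at -88, which overlaps the 66-base window of XTH13. The 28 of 66 bases are therefore not the closest match between these promoters. The common run began at base 6 after the annotated start in XTH12, at -71 in XTH13 and at -141 in XTH14.

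Of the motifs searched, the core of the abscisic acid response element, ACGTG on either strand, was in 6 of 33 XTH promoters (27.5% of all promoters), and among the 16 members that fell in 3, which are XTH13, XTH14 and XTH26. The 35 bases around it are shown because these 3 belong to the root hair zone set, with the motif in capitals, which reads CACGT on the gene's strand. They lie at chr5:23304164-23304198 (minus strand), chr4:13130215-13130249 (plus strand) and chr4:14244170-14244204 (plus strand) in TAIR10.
XTH13: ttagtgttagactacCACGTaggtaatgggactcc
XTH14: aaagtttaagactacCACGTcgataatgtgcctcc
XTH26: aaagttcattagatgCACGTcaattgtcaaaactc
The XTH13 and XTH14 windows were identical in 27 of 35 bases, those of XTH13 and XTH26 in 13, and those of XTH14 and XTH26 in 18. The motif began at -88, -61 and -105 from the start of XTH13, XTH14 and XTH26. The G-box CACGTG was in 0 of 33 XTH promoters (8.2% of all), the brassinosteroid elements CGTGTG and CGTGCG in 4 and 0 (6.7% and 2.1% of all), and the W-box core TTGAC in 17 (50.9% of all). The G-box holds the ABRE core, so these 2 searches overlap. The root hair element, named RHE, was in 0 of 33 XTH promoters and in 0.88% of all promoters. It was in those of 3 of the 6 root hair markers, EXPA7, EXPA18 and LRX1. A match is a description of these letters and not a binding site.

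In WT, XTH13 (AT5G57540, chr5:23302787-23304095, minus strand) held 18.9, 7.59 and 10.5 CPM at 0 mM and 2.31 and 3.84 CPM at 150 mM. In C4, XTH13 held 14.4, 16.9 and 21.5 CPM at 0 mM and 2.51, 2.26 and 1.95 CPM at 150 mM. In B2, XTH13 held 13.8, 17.7 and 7.56 CPM at 0 mM and 8.54, 2.74 and 4.34 CPM at 150 mM. The conditions did not overlap in WT and C4, and in B2 library 1 at 150 mM was above library 3 at 0 mM. The log2 fold changes of XTH13 were -2.005 ± 0.50 in WT, -2.97 ± 0.45 in C4 and -1.32 ± 0.42 in B2, with edgeR adjusted p = 0.0145, 0.00143 and 0.0444. The C4 call held under all 22 alternatives and the B2 call was lost under 9.

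XTH12 (AT5G57530, chr5:23300321-23301689, minus strand) is the neighbour of XTH13. In WT, XTH12 held 25.9, 8.25 and 9.51 CPM at 0 mM and 1.70 and 5.61 CPM at 150 mM. In C4, XTH12 held 19.8, 19.9 and 27.01 CPM at 0 mM and 4.30, 2.53 and 3.59 CPM at 150 mM. In B2, XTH12 held 16.5, 19.2 and 9.25 CPM at 0 mM and 10.2, 3.35 and 7.23 CPM at 150 mM. The conditions overlapped in B2 alone. The log2 fold changes of XTH12 were -1.99 ± 0.61 in WT, -2.68 ± 0.54 in C4 and -1.11 ± 0.51 in B2, with edgeR adjusted p = 0.0379, 0.00621 and 0.144. The WT call was lost without WT 0 mM library 1 (log2 fold change -1.28, edgeR adjusted p = 0.158) and without WT 150 mM library 1 (-1.38, adjusted p = 0.299). Without the 2 libraries that go against their labels the WT value was -3.09, with WT 150 mM library 1 alone on the salt side. XTH14 and XTH26 passed in C4 alone within genotypes. XTH26 went from 6.495 ± 2.703 to 0.516 ± 0.352 CPM there (SD, n = 3 and 3), a 12.4-fold drop (edgeR adjusted p = 0.0205). XTH14, a more abundant gene, went from 82.9 ± 15.0 to 38.7 ± 1.33 CPM there, 2.14-fold lower (edgeR adjusted p = 0.00641).

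At 0 mM XTH26 and XTH14 were low in WT library 3 and B2 library 3. XTH26 held 0.311 and 0.786 CPM in them and 2.67 to 9.38 CPM in the other 7 libraries at 0 mM. XTH14 held 45.2 and 48.7 CPM in them, within the range of the libraries at 150 mM, 37.5 to 52.7 CPM. XTH12 and XTH13 were also lowest in them at 0 mM, but for XTH12 WT library 4 was close. The root hair marker sums of WT library 3 and B2 library 3 were 181 and 191 CPM, inside the range of the other libraries at 0 mM. B2 library 3 is 1 of the 2 libraries that go against their labels. Without both of those libraries, the averaged log2 fold change was -2.88 for XTH26, -2.33 for XTH13, -2.38 for XTH12 and -0.81 for XTH14, and all 4 were called.

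**Figure D3:**
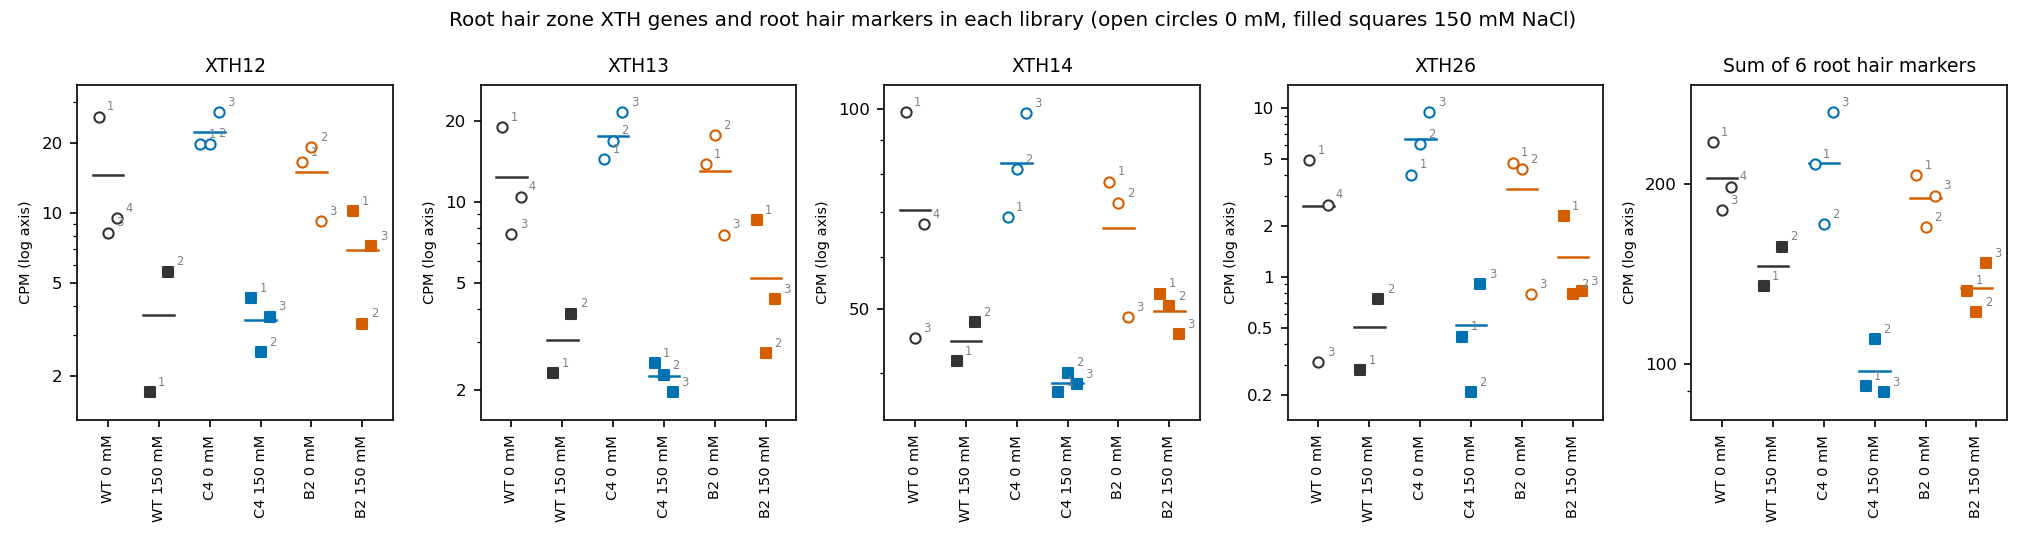
Level (CPM, log axes) of XTH12, XTH13, XTH14 and XTH26 and the summed level of 6 root hair markers in each library, by group. Open circles are 0 mM, filled squares 150 mM NaCl, digits name the library and lines are group means. XTH26 is at 0.311 CPM in WT 0 mM library 3 and at 0.786 CPM in B2 0 mM library 3, while the marker sums of these libraries are 181 and 191 CPM.

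XTH15 (AT4G14130, chr4:8137020-8138392, minus strand) and XTH16 are close relatives in the second group. In WT, XTH15 held 63.4, 72.2 and 42.4 CPM at 0 mM and 13.6 and 22.7 CPM at 150 mM. In C4, XTH15 held 48.0, 58.6 and 58.5 CPM at 0 mM and 24.5, 13.7 and 18.1 CPM at 150 mM. In B2, XTH15 held 50.4, 46.9 and 73.8 CPM at 0 mM and 31.2, 12.8 and 18.0 CPM at 150 mM. Every library at 150 mM was below every library at 0 mM, over all genotypes. XTH15 had log2 fold changes of -1.71 ± 0.38 in WT, -1.55 ± 0.32 in C4 and -1.46 ± 0.32 in B2, with edgeR adjusted p = 0.00827, 0.00735 and 0.00997. Of the 150-base windows of XTH15 exons, 22.02% also lie in AT4G14120 on the other strand, and counting was by strand.

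XTH16 (AT3G23730, chr3:8550037-8551403, plus strand) was lower in level. In WT it held 9.33, 7.15 and 6.81 CPM at 0 mM and 3.78 and 6.05 CPM at 150 mM. In C4 it held 8.84, 8.16 and 11.2 CPM at 0 mM and 2.79, 2.84 and 3.25 CPM at 150 mM. In B2 it held 8.95, 7.55 and 7.81 CPM at 0 mM and 5.52, 3.32 and 2.74 CPM at 150 mM. The conditions did not overlap in any genotype, and the 3 C4 libraries at 150 mM lay within a narrow span. XTH16 had log2 fold changes of -0.66 ± 0.28 in WT, -1.67 ± 0.25 in C4 and -1.07 ± 0.25 in B2, with edgeR adjusted p = 0.113, 0.00115 and 0.0107. The difference between C4 and WT in salt response was -1.01 ± 0.36 with an unadjusted p of 0.0137, an edgeR adjusted p of 1, and did not pass.

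XTH17, XTH18, XTH19 and XTH20 are close relatives that are known to be expressed mainly in roots, and XTH18 is known from the elongation of epidermal cells there. XTH18 (AT4G30280, chr4:14825757-14827211, minus strand) was the most abundant of them per kb in the mean over the 6 groups. At 150 mM XTH19 was above XTH18 in WT and C4. In WT, XTH18 held 153.3, 156.8 and 110.1 CPM at 0 mM and 21.8 and 55.1 CPM at 150 mM. In C4, XTH18 held 82.0, 88.9 and 91.9 CPM at 0 mM and 49.7, 32.2 and 54.2 CPM at 150 mM. In B2, XTH18 held 125.5, 86.3 and 152.9 CPM at 0 mM and 58.4, 33.9 and 47.2 CPM at 150 mM. All libraries at 150 mM lay below all at 0 mM. XTH18 had log2 fold changes of -1.87 ± 0.37 in WT, -0.95 ± 0.31 in C4 and -1.39 ± 0.31 in B2, with edgeR adjusted p = 0.00492, 0.0611 and 0.0111. The WT call was lost without WT 150 mM library 1 (-1.35, adjusted p = 0.0744) and in a fit of the WT libraries alone (-1.87, adjusted p = 0.0563). Without the 2 libraries that go against their labels the WT value was -2.67, with WT 150 mM library 1 alone on the salt side.

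XTH17 (AT1G65310, chr1:24257054-24258506, plus strand) moved in the same direction. In WT, XTH17 held 81.4, 45.1 and 27.9 CPM at 0 mM and 7.19 and 14.5 CPM at 150 mM. In C4, XTH17 held 25.6, 23.8 and 46.2 CPM at 0 mM and 12.5, 11.1 and 12.2 CPM at 150 mM. In B2, XTH17 held 33.3, 25.3 and 45.6 CPM at 0 mM and 22.9, 11.5 and 10.7 CPM at 150 mM. The conditions did not overlap in any genotype, although in B2 library 1 at 150 mM came near library 2 at 0 mM. XTH17 had log2 fold changes of -2.25 ± 0.50 in WT, -1.42 ± 0.42 in C4 and -1.21 ± 0.41 in B2, with edgeR adjusted p = 0.00887, 0.0396 and 0.0598. The C4 call of XTH17 was lost under 7 of 22 alternatives. Its WT call was lost in a fit of the WT libraries alone (edgeR adjusted p = 0.0644) and without WT 150 mM library 1 (log2 fold change -1.84). XTH20 passed over the genotypes alone, with a log2 fold change of -0.52 ± 0.17 (edgeR adjusted p = 0.0255).

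XTH19 (AT4G30290, chr4:14828712-14830224, minus strand) went the other way. Averaged over genotypes it rose by 0.49 ± 0.12 on the log2 scale (edgeR adjusted p = 0.00359). In C4, XTH19 held 47.1, 49.1 and 83.2 CPM at 0 mM and 82.1, 124.0 and 102.5 CPM at 150 mM, a log2 fold change of 0.78 ± 0.20 (edgeR adjusted p = 0.018). In WT, XTH19 held 71.7, 74.2 and 64.4 CPM at 0 mM and 92.0 and 106.7 CPM at 150 mM, and its change of 0.50 ± 0.22 did not pass (adjusted p = 0.127). In B2 the change was 0.18 ± 0.20 (adjusted p = 0.552). The conditions were apart in WT, and in C4 1 library at 0 mM lay above 1 at 150 mM.

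XTH18 and XTH19 are neighbours on the minus strand of chromosome 4, with 1500 bases between them and no other gene of the table in that gap. They are the only pair of adjacent members with a call in each direction over the genotypes. Their exons share a longest run of 68 identical bases, and no 150-base window of either gene's exons occurs in another gene. Their promoters are shown because the neighbours moved in opposite directions, with the W-box core TTGAC (or GTCAA, its reverse complement) in capitals, at chr4:14827162-14827461 for XTH18 and chr4:14830175-14830474 for XTH19 (TAIR10, minus strand, 300 bases each).
XTH18: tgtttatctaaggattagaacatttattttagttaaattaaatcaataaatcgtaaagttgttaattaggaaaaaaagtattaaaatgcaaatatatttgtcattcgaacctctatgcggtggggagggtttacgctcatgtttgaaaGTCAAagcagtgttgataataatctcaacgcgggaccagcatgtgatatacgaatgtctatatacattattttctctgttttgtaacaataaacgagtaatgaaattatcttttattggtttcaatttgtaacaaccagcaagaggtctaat
XTH19: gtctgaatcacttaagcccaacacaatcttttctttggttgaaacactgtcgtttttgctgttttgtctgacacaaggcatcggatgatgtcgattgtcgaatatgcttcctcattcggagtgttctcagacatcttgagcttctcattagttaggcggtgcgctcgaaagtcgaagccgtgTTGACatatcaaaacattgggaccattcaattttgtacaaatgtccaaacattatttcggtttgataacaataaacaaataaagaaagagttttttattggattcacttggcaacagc
Each promoter held the W-box core at 1 place, at -102 in XTH18 and -68 in XTH19, and neither held the ABRE core, the G-box or a brassinosteroid element. Their longest shared run was 11 bases, beside 23 bases for the neighbours XTH12 and XTH13. Runs were measured for neighbours only. The promoter of XTH17, which lies on another chromosome and also fell, shares a longer run than these with that of XTH18.

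**Figure D4:**
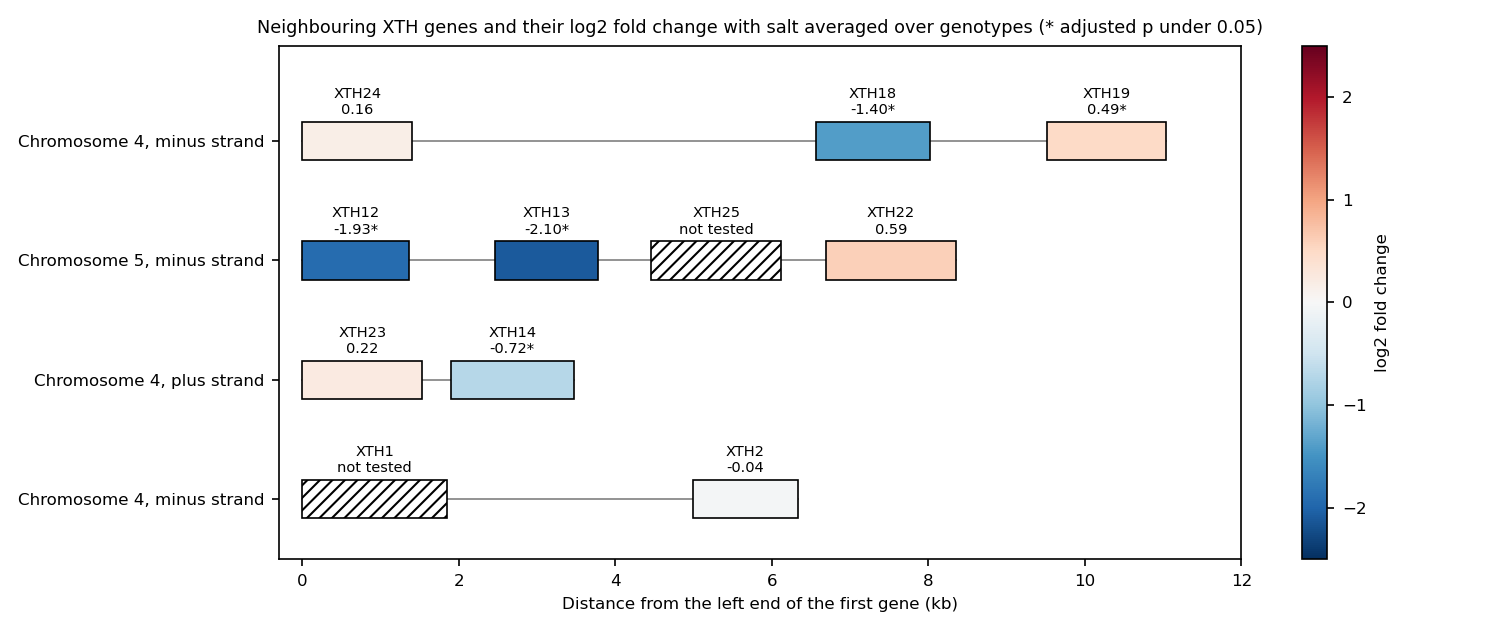
Neighbouring XTH genes drawn to scale by distance (kb) from the left end of the first gene of each set, coloured and labelled by log2 fold change with salt averaged over genotypes. An asterisk marks an adjusted p under 0.05 in edgeR and hatching a gene that was not tested. XTH18 (-1.40) lies beside XTH19 (0.49), and XTH12 (-1.93) beside XTH13 (-2.1).

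Other neighbours also differed. On chromosome 5, XTH12, XTH13, XTH25 and XTH22 follow each other with gaps of 1097, 686 and 565 bases. XTH12 and XTH13 fell, XTH25 was at or near 0 counts, and XTH22, also known as the touch-induced gene TCH4, rose in C4 alone. XTH22 in C4 held 13.7, 13.3 and 10.6 CPM at 0 mM and 34.9, 16.2 and 40.4 CPM at 150 mM, a log2 fold change of 1.28 ± 0.40 (edgeR adjusted p = 0.0489). This call was lost under 16 of 22 alternatives, among them that without the 2 libraries that go against their labels (adjusted p = 0.0593). On chromosome 4, XTH23 and XTH14 are 363 bases apart, and XTH23 had an averaged change of 0.22 ± 0.09 (adjusted p = 0.0566) beside the fall of XTH14. XTH24 lies 5161 bases from XTH18.

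XTH21 (AT2G18800, chr2:8144881-8146477, plus strand) is known from primary root growth. In WT, XTH21 held 23.9, 28.7 and 12.8 CPM at 0 mM and 7.29 and 9.30 CPM at 150 mM. In C4, XTH21 held 17.1, 20.8 and 25.0 CPM at 0 mM and 9.29, 2.47 and 7.71 CPM at 150 mM. In B2, XTH21 held 17.8, 16.0 and 27.6 CPM at 0 mM and 11.3, 3.24 and 5.57 CPM at 150 mM. All libraries at 150 mM were below all at 0 mM. XTH21 had log2 fold changes of -1.39 ± 0.55 in WT, -1.69 ± 0.48 in C4 and -1.61 ± 0.48 in B2, with edgeR adjusted p = 0.0976, 0.0353 and 0.0361. Without the 2 libraries that go against their labels the B2 value was -1.35 (adjusted p = 0.144).

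XTH24 (AT4G30270, chr4:14819192-14820595, minus strand), the member with the highest mean level per kb over the 6 groups, showed no called change. In WT, XTH24 held 86.3, 119.5 and 204.1 CPM at 0 mM and 133.4 and 124.4 CPM at 150 mM. In C4, XTH24 held 127.4, 128.5 and 108.8 CPM at 0 mM and 158.0, 108.0 and 188.5 CPM at 150 mM. In B2, XTH24 held 142.7, 128.8 and 117.5 CPM at 0 mM and 139.5, 175.0 and 147.3 CPM at 150 mM. The conditions overlapped in each genotype, and the averaged log2 fold change was 0.16 (95% interval -0.15 to 0.47, edgeR adjusted p = 0.404).

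In the last group, XTH31 and XTH32 fell over the genotypes. In WT, XTH31 (AT3G44990, chr3:16446935-16448844, minus strand) held 305.0, 117.7 and 142.9 CPM at 0 mM and 54.8 and 103.9 CPM at 150 mM. In C4, XTH31 held 124.7, 212.3 and 192.6 CPM at 0 mM and 112.4, 123.4 and 93.7 CPM at 150 mM. In B2, XTH31 held 194.1, 160.7 and 121.3 CPM at 0 mM and 129.5, 116.3 and 81.5 CPM at 150 mM. The conditions overlapped in B2 alone, and WT 0 mM library 1 stood above every other library. XTH31 had log2 fold changes of -1.25 ± 0.40 in WT, -0.68 ± 0.34 in C4 and -0.54 ± 0.34 in B2, with edgeR adjusted p = 0.0434, 0.216 and 0.286. The WT call of XTH31 was lost under 10 of 22 alternatives, with a value of -0.72 (adjusted p = 0.184) without WT 0 mM library 1. Averaged, XTH31 fell by 0.82 ± 0.21 (adjusted p = 0.00535).

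XTH32 (AT2G36870, chr2:15472607-15474828, minus strand) was present at about the level of XTH16 per kb. In WT, XTH32 held 10.7, 8.32 and 8.24 CPM at 0 mM and 5.84 and 6.96 CPM at 150 mM. In C4, XTH32 held 10.7, 14.0 and 9.94 CPM at 0 mM and 6.69, 8.28 and 4.91 CPM at 150 mM. In B2, XTH32 held 12.7, 9.94 and 9.95 CPM at 0 mM and 7.05, 5.87 and 6.28 CPM at 150 mM. The conditions did not overlap within a genotype. XTH32 had log2 fold changes of -0.50 ± 0.22 in WT, -0.80 ± 0.20 in C4 and -0.76 ± 0.20 in B2, with edgeR adjusted p = 0.135, 0.0154 and 0.0181.

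XTH30 (AT1G32170, chr1:11575320-11578030, plus strand) is known from work on salt tolerance in this species. Its mean level per kb over the 6 groups was the next below that of XTH31. In WT, XTH30 held 103.8, 124.6 and 135.2 CPM at 0 mM and 100.1 and 127.9 CPM at 150 mM. In C4, XTH30 held 122.1, 89.1 and 98.8 CPM at 0 mM and 88.5, 101.6 and 83.4 CPM at 150 mM. In B2, XTH30 held 96.7, 100.8 and 123.3 CPM at 0 mM and 85.6, 119.0 and 117.9 CPM at 150 mM. The conditions overlapped in each genotype. The averaged log2 fold change was -0.09 (95% interval -0.30 to 0.12, edgeR adjusted p = 0.506). XTH28 (AT1G14720, chr1:5066525-5068677, minus strand), known from stamen growth, rose over the genotypes by 0.59 ± 0.13 (edgeR adjusted p = 0.0015), with changes of 0.58, 0.55 and 0.63 in WT, C4 and B2 that each missed the threshold. XTH33, a member with a predicted membrane anchor, fell by 0.93 ± 0.27 (edgeR adjusted p = 0.0113), and XTH27 had a change of 0.13 (95% interval -0.0047 to 0.27, adjusted p = 0.112).

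**Figure D5:**
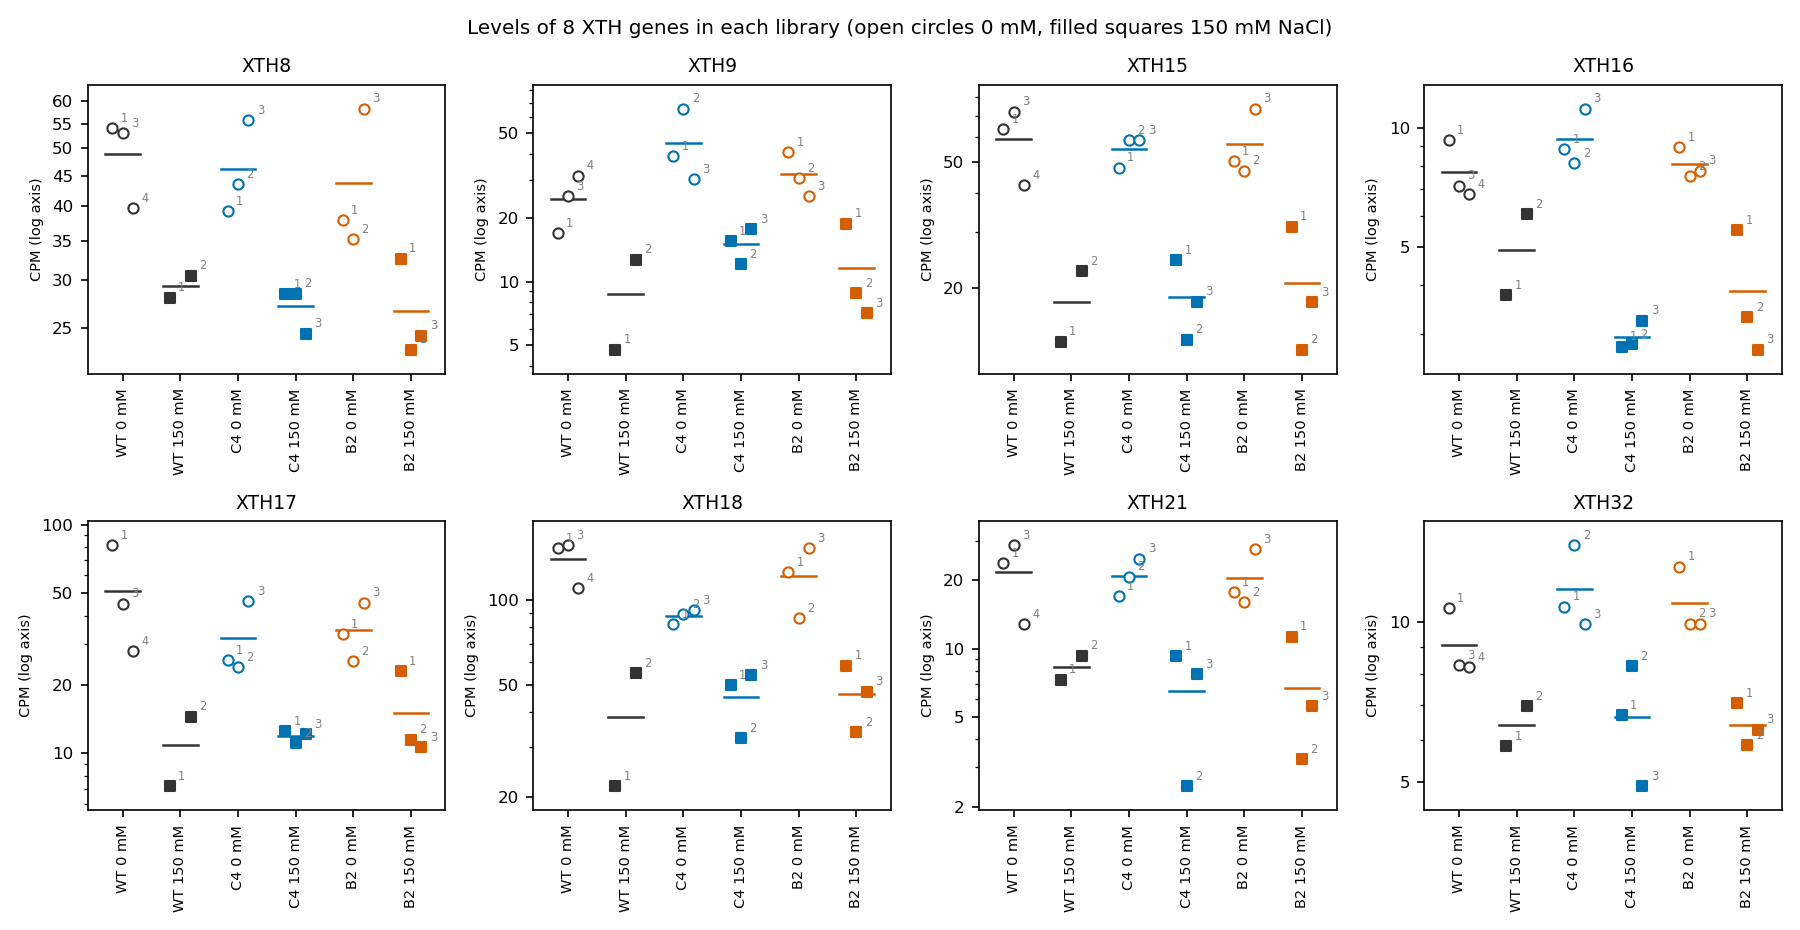
Level (CPM, log axes) of XTH8, XTH9, XTH15, XTH16, XTH17, XTH18, XTH21 and XTH32 in each library, by group. Open circles are 0 mM, filled squares 150 mM NaCl, digits name the library and lines are group means. For XTH15 every library at 150 mM (12.8 to 31.2 CPM) is below every library at 0 mM (42.4 to 73.8 CPM).

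Between genotypes no member passed. At 0 mM, C4 against WT, B2 against WT and C4 against B2 had 0 of 29 members called, and so had the same comparisons at 150 mM, with 0% of all tested genes called in each by edgeR. At an unadjusted p under 0.05, 3 members differed in C4 against WT at 0 mM (XTH4, XTH7 and XTH18), 1 in C4 against WT at 150 mM (XTH16), 1 in B2 against WT at 150 mM (XTH23) and 3 in C4 against B2 at 150 mM (XTH13, XTH22 and XTH23). In the other 2 comparisons 0 members reached it. The share of all tested genes at that unadjusted threshold was 4.06% in C4 against WT at 0 mM, 6.44% in C4 against WT at 150 mM, 10.1% in B2 against WT at 150 mM and 6.57% in C4 against B2 at 150 mM. DESeq2 called 1 member in these 6 comparisons, XTH23, higher in C4 than in B2 at 150 mM, where it called 91 of the 21367 tested genes. At 0 mM it called 7 genes in C4 against WT, 0 in B2 against WT and 1 in C4 against B2. It called 57 genes in C4 against WT and 27 in B2 against WT at 150 mM. XTH23 held 16.1 ± 3.25 CPM in C4 and 9.98 ± 0.846 CPM in B2 there (SD, n = 3 and 3), a log2 difference of 0.69 ± 0.15 with an edgeR adjusted p of 0.343. The comparisons with WT share the WT libraries.

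The difference of salt responses was tested as well, with 0 members and 0% of all genes called by edgeR for C4 minus WT and for B2 minus WT. At an unadjusted p under 0.05 there were 2 members for C4 minus WT, XTH4 and XTH16, and 0 for B2 minus WT, beside 3.63% and 4.53% of all tested genes. DESeq2 called 0 members in both, beside 6 of all tested genes for C4 minus WT and 1 for B2 minus WT. These results do not show equal responses. The 95% interval of the difference lay within 1 log2 unit of 0 for 8 of 29 members in C4 minus WT and for 10 of 29 in B2 minus WT. For XTH13 the log2 fold changes ran from -1.32 in B2 to -2.97 in C4, and C4 against B2 at 150 mM differed by -1.22 (95% interval -2.14 to -0.30, unadjusted p = 0.0125, edgeR adjusted p = 0.672). Without the 2 libraries that go against their labels, again 0 members passed in these 8 comparisons. Over all genes, edgeR then called some in each of these 8 comparisons, where it had called 0, and the most in B2 against WT at 150 mM. In that fit WT 150 mM library 1 alone stands for WT with salt, so the counts are not given.

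Of 16 genes of xyloglucan synthesis (glucan synthases, xylosyl-, galactosyl- and fucosyltransferases and acetyltransferases), 0 passed in WT, 2 fell in C4 (CSLC12, a glucan synthase, and XUT1, a galacturonosyltransferase of root hairs) and 1 fell in B2 (XXT4, a xylosyltransferase), all 3 named here after their values were seen. The 2 of 16 in C4 are 12.5% of the list, beside 12.1% of all tested genes called in C4 (5.44% fell). The 1 of 16 in B2 is 6.25% of the list, beside 16.2% called in B2 (6.64% fell). Over the genotypes 2 of the 16 fell and none rose, beside 42.1% of all tested genes called, with a median log2 fold change of -0.07. XUT1 fell by 0.78 ± 0.16 over the genotypes (edgeR adjusted p = 0.00114). CSLC12 had 0.54 ± 0.24 in WT, -0.90 ± 0.22 in C4 and 0.23 ± 0.22 in B2. The 3 trimming enzymes, which take xylose, galactose and fucose off xyloglucan, rose over the genotypes, where 21.5% of all tested genes rose, XYL1 by 0.25 ± 0.08, BGAL10 by 0.33 ± 0.13 and AXY8 by 0.45 ± 0.11, with edgeR adjusted p = 0.0192, 0.0445 and 0.00435. None of these 3 passed within a genotype.

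Of 7 genes of primary wall cellulose synthesis, 1 fell in each genotype, where 7.35%, 5.44% and 6.64% of all tested genes fell in WT, C4 and B2. Over the genotypes 3 of the 7 fell, beside 20.5% of all tested genes. CESA2, a cellulose synthase subunit, averaged 230.04 ± 33.2 CPM at 0 mM and 133 ± 27.2 CPM at 150 mM in WT (SD, n = 3 and 2). In C4 it averaged 205 ± 12.1 and 124 ± 12.1 CPM, and in B2 221 ± 10.5 and 153 ± 8.52 CPM. Its log2 fold changes were -0.79 ± 0.15 in WT, -0.72 ± 0.13 in C4 and -0.53 ± 0.13 in B2, with edgeR adjusted p = 0.00361, 0.00315 and 0.015. RBCS1A, whose promoter drives the inserted gene, had log2 fold changes of 0.66 ± 0.40 in WT, -0.04 ± 0.36 in C4 and -0.74 ± 0.37 in B2, none of them called.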

How the data were processed

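Stranded mRNA libraries of roots were made by the authors. They deposited raw counts per gene. Per the file headers, featureCounts 2.0.3 counted reads on Araport11 exons, by strand, at a mapping quality of at least 10, with the reads of a pair counted singly. STAR 2.7.11a, fastp, FastQC 0.12.1 and the TAIR10 build are named in the submitters' processing notes. Gene spans equalled the RefSeq TAIR10.1 annotation for 99.74% of genes and 33 of 33 XTH genes, so promoters and exons were read from that genome with Python 3.11.15. WT 0 mM libraries 1 and 2 were equal in 24515 of 24532 genes; library 2 was left out, as were the 17 genes that differed. edgeR 4.0.16 in R 4.3.3 was run with TMM scaling, its low-count filter and robust quasi-likelihood F tests, with a mean for each of 6 groups in 17 libraries, two-sided, adjusted by Benjamini-Hochberg over 21367 genes at 0.05. The SE is the log2 fold change over the root of F. CPM used TMM-scaled sizes. The procedure was tested on simulated data. The floor of 3 counts covers counting error only. Alternatives were DESeq2's size factors, no filter, DESeq2 1.42.0, only the groups compared, each library left out, and the 2 libraries that go against their labels left out. Libraries were numbered in accession order. The members, lists and motifs were chosen with earlier results of these data known. Values per library are given for members called in at least 2 of 3 salt comparisons and the 5 highest per kb. XTH14, XTH19, XTH22, XTH26 and XTH28 were chosen for more detail after their values were seen, as were the common promoter run, the RHE search and the opposite neighbours.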

Additional observations from a re-analysis of the deposited data

How the results depend on the processing

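Of the salt changes called for XTH members, none changed direction under the alternatives run; changes and genotype differences of single members that were not called were not recomputed. Averaged over genotypes, 18 to 20 members were called under the other settings and 16 to 20 with each library left out. Fitting only the groups compared left 2 members in the WT salt comparison, in place of 9. DESeq2 called 1 member in C4 against B2 at 150 mM, in place of 0, beside 91 of all tested genes. The cause of these moves was not tested. With each library left out in turn, members called with salt ran from 0 to 11 in WT, 7 to 14 in C4 and 0 to 10 in B2, and in C4 against B2 at 150 mM from 0 to 1. The other comparisons between genotypes and of salt responses stayed at 0. The shares of all tested genes called in these runs are not given. In C4, the calls of XTH12, XTH13, XTH14, XTH15 and XTH16 held under all 22 alternatives. Where a library left out gave a group 1 sample, that sample was assumed to vary like the other groups. Dividing by gene length changed the order of levels: XTH30 and XTH4 were ranks 3 and 4 in CPM per kb and 4 and 3 in CPM, and XTH18 and XTH19 ranks 5 and 6 and 6 and 5. No paired analysis was possible because the labels give the groups no shared replicate numbers. With 2 or 3 libraries per group, wide intervals limit what a missed threshold says.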
